A study of Rattus norvegicus with 8 samples.

Results

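The Toll-like receptors, the co-receptors *Cd14* and *Ly96* and the adaptor *Myd88* were examined in the hypothalamus of male F344 rats injected with RA or vehicle. The 10 members were taken by name: *Tlr2*, *Tlr4*, *Tlr5* and *Tlr6* as cell-surface receptors, *Tlr3*, *Tlr7* and *Tlr9* as endosomal receptors, and *Cd14*, *Ly96* and *Myd88*. They were 10 of the 15159 genes that could be named on the arrays, each read from its brightest probe. All rats (strain label F344N) were held in SD, and each received 5 μl of RA or vehicle into the third ventricle, 24 hrs before the hypothalamic blocks were taken. The labels give the RA concentration as 1e-05 M and the methods as 1e-04 M, while the vehicle is saline in the labels and DMSO in saline in the methods. RNA of 4 RA-injected and 4 vehicle-injected rats was hybridised in both dye orders to 8 two-colour arrays on 1 slide. Cy5 carried the RA sample on arrays 1, 3, 6 and 8, and Cy3 carried it on arrays 2, 4, 5 and 7. The 8 arrays therefore do not stand for 8 rats per group. Which arrays carried the same RNA is not given in the sources used here. The main p values measure the spread between means of 4 couples of arrays, 1 of each dye order. That spread may be partly technical.

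Toll-like receptors recognise conserved molecules of microbes and of damaged tissue. Those at the cell surface bind mainly lipids and proteins (TLR4 lipopolysaccharide, TLR5 flagellin, TLR2 lipopeptides, as a heterodimer with TLR6 or TLR1), whereas those in endosomes bind nucleic acids. CD14 is a lipid-binding protein that passes lipopolysaccharide to TLR4, and LY96, also called MD-2, is the subunit of TLR4 that holds it. MYD88 is the adaptor that links most of these receptors to IRAK kinases and NF-kB, and TLR3 is the exception that signals through another adaptor. In the brain these receptors are known mainly from microglia, the resident macrophages.

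A RefSeq promoter entry was found for 9 members (GRCr8 build), of which the 250 bases before the gene start were read. Those of *Tlr2* and *Myd88* are shown because they held matches to motifs of inflammatory transcription factors, that of *Tlr6* because its product pairs with TLR2, and that of *Tlr4* as the other measured surface receptor. All run 5′ to 3′ along the gene, and capitals mark motif matches on either strand. They lie at chr2:171504558-171504807 (*Tlr2*, minus strand), chr14:43715559-43715808 (*Tlr6*, plus strand), chr8:127956231-127956480 (*Myd88*, minus strand) and chr5:85160997-85161246 (*Tlr4*, plus strand).
Tlr2: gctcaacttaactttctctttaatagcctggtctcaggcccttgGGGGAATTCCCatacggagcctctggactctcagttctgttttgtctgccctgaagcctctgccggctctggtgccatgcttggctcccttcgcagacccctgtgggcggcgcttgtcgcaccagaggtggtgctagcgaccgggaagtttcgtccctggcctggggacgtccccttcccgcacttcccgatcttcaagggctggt
Tlr6: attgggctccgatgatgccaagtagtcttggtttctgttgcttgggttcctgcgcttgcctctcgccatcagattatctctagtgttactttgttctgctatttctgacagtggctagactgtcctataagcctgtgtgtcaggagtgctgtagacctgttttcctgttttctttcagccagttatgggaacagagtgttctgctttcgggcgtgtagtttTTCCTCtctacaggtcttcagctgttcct
Myd88: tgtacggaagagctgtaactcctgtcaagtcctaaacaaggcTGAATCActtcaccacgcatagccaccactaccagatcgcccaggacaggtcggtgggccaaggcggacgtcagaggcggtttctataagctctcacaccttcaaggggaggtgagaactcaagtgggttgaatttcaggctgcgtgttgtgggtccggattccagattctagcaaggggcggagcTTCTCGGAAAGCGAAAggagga
Tlr4: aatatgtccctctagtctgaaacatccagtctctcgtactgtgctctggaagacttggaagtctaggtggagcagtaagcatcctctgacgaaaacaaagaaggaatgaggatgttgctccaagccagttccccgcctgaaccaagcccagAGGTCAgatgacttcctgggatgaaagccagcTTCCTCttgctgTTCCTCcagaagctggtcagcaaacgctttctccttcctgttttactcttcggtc

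The motifs searched on both strands were the NF-kB consensus, the interferon-stimulated element (ISRE, GAAA-NN-GAAA), the ETS core bound by PU.1 (GAGGAA), AP-1 (TGANTCA), CRE (TGACGTCA), the GAS element bound by STAT factors (TTCNNNGAA), C/EBP (TTGCGCAA) and the RA receptor half-sites AGGTCA and AGTTCA. The *Tlr2* window held the NF-kB consensus in 2 overlapping frames between -206 and -196 from the start, and 3.54% of all 33465 windows of this length held that motif. The *Myd88* window held an ISRE between -16 and -7, found in 3.41% of windows, overlapping a GAS element between -22 and -14, found in 7.67%. It also held AP-1 letters between -208 and -202, found in 6.34%. The *Tlr9* window, which is not shown, held AP-1 letters too, between -65 and -59. The ETS core lay in the windows of *Tlr6* and *Tlr4*, the latter with 2 matches, and in 6 of the 9 members against 23.3% of all windows. The AGGTCA half-site lay in the *Tlr4* and *Tlr9* windows (14.1% of all windows) and AGTTCA in that of *Cd14* (12.2%). These matches describe the letters only.

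After RA, 5 of the 10 members were higher at the unadjusted p under 0.01 used in the methods, and none was lower. They were *Cd14*, *Tlr6*, *Myd88*, *Tlr2* and *Ly96*, and among all named genes 3.52% were higher at this threshold (4.31% in either direction, and 3.25% of all probes). The 5 comprised 2 of the 4 surface receptors, none of the 3 endosomal receptors, and all 3 of the co-receptors and adaptor. The median log2 fold change was 0.24 over the 10 members and -0.0047 over all named genes. Because the tissue was bulk, a change in the number of cells of a type cannot be told apart from a change in RNA per cell. The log2 ratio was above 0 on all 8 arrays for 4 members (*Tlr2*, *Tlr6*, *Cd14* and *Myd88*), as for 4.07% of named genes. After adjustment over all probes no member passed 0.05 in limma (0 of 10). At an unadjusted p under 0.05, 7 members were higher, beside 8.48% of named genes, and the adjusted p of the 5 ranged from 0.222 to 0.285. With couples of arrays as a random block, *Tlr2*, *Tlr6*, *Cd14* and *Myd88* passed an adjusted p of 0.05 in limma (4 of 10), as did 521 of all 30367 probes. That fit took the coupling with the fewest calls (1 with 2, 3 with 4, 6 with 7, 8 with 5) and a shared correlation of 0.33. Where the arrays of a couple are more alike than that, its p values are too small. With the 8 arrays taken as independent, although they hold RNA of 4 rats per group, *Ly96* also passed (5 of 10), as did 935 probes.

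**Figure D1:**
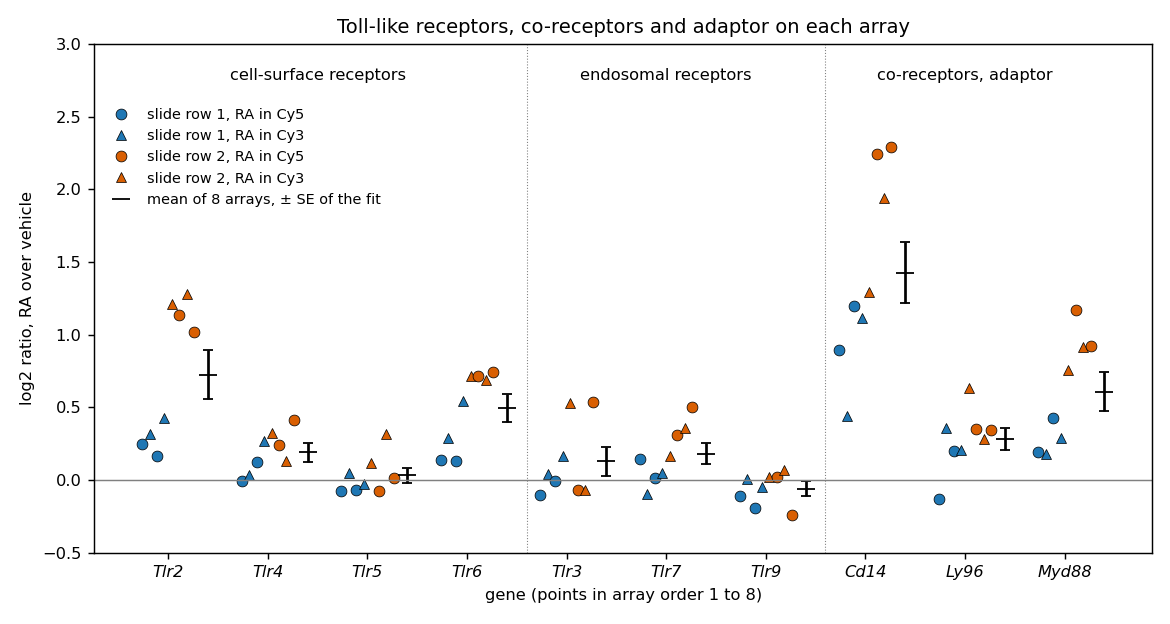
Log2 ratio of RA over vehicle (vertical axis) of each of the 10 members on each of the 8 arrays. Points stand for arrays, with the dye order and slide row marked as in the key, and bars for the mean with its standard error. *Cd14*, *Tlr2*, *Tlr6* and *Myd88* lie above 0 on all 8 arrays and are higher on the arrays of slide row 2, whereas *Tlr5* and *Tlr9* scatter around 0.

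Among the surface receptors, *Tlr2* had log2 ratios of 0.25, 0.31, 0.17 and 0.43 on arrays 1 to 4 and of 1.21, 1.14, 1.28 and 1.02 on arrays 5 to 8. All 8 were above 0, and arrays 5 to 8 did not overlap with arrays 1 to 4. The mean was 0.73 with a standard error of 0.17, a 1.65-fold increase. Its unadjusted p in limma was 0.00349, the largest over the 24 ways of coupling arrays of opposite dye order, and the lowest was 2.45e-08. Coupling an array of 1 to 4 with an array of 5 to 8 averages a low and a high ratio, which narrows the spread. The coupling with the most calls (1 with 7, 3 with 5, 6 with 4, 8 with 2) was of that kind. The lowest p is therefore no measure of the evidence. By dye order the mean was 0.64 where Cy5 carried RA and 0.81 where Cy3 did. The normalised log2 intensity of the *Tlr2* probe was 10.03 ± 0.66 in the RA channel and 9.30 ± 0.23 in the vehicle channel (SD, n = 8 arrays).

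*Tlr6*, the partner of TLR2 for diacylated lipopeptides, had log2 ratios of 0.14, 0.29, 0.13 and 0.55 on arrays 1 to 4 and of 0.72, 0.72, 0.69 and 0.74 on arrays 5 to 8. Again the arrays of slide row 2 all lay above those of row 1. The mean was 0.50 with a standard error of 0.09 (1.41-fold), with an unadjusted p of 0.00111 in limma. On 7 of the 8 arrays *Tlr2* had a higher ratio than *Tlr6*, by a mean of 0.23 on the log2 scale. That difference ranged from -0.12 to 0.60 over the arrays and was not tested.

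*Tlr4*, the lipopolysaccharide receptor, had log2 ratios of -0.0090, 0.03, 0.13 and 0.27 on arrays 1 to 4 and of 0.32, 0.24, 0.13 and 0.41 on arrays 5 to 8. The ratio was above 0 on 7 arrays, and the slide rows overlapped. The mean was 0.19 with a standard error of 0.06 (1.14-fold), and the unadjusted p of 0.0188 in limma missed the threshold. Under plain background subtraction the mean was 0.45 and with Agilent's log ratio 0.48, also without passing it. The p of 0.0188 was the largest over the 24 couplings, and 17 of them gave *Tlr4* a p under 0.01. As for *Tlr2*, couplings across arrays 1 to 4 and 5 to 8 can narrow the spread. *Tlr4* also passed in limma in 4 of 19 alternatives, and in 1 of 16 fits with a couple of arrays left out. The probe was well above background on all 8 arrays in the RA channel and on 6 in the vehicle channel. The *Tlr2* ratio was higher than that of *Tlr4* on all 8 arrays, by 0.04 to 1.15 on the log2 scale.

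*Tlr5*, the flagellin receptor, was not well above background on any array in either channel, so no fold is given. Its log2 ratios lay between -0.08 and 0.32, with a mean of 0.03, and the unadjusted p in limma was 0.531.

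Of the endosomal receptors, *Tlr3*, which binds double-stranded RNA, was well above background on all arrays in both channels. It had log2 ratios of -0.10, 0.04, -0.0032 and 0.17 on arrays 1 to 4 and of 0.53, -0.07, -0.07 and 0.54 on arrays 5 to 8. The high values were those of arrays 5 and 8, and the other 6 arrays scattered around 0. The mean of 0.13 had a standard error of 0.10 (unadjusted p in limma 0.232), and without arrays 5 and 8 it was -0.0061 with a p of 0.923. A second probe of the gene, A_44_P1021361, had a mean of 0.15, with 0.62 and 0.41 on arrays 5 and 8, and limma gave it an unadjusted p of 0.148. Over the 8 arrays the ratios of the *Tlr3* probes correlated with a Pearson r of 0.83, as a description of probes that share their arrays.

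*Tlr7*, a receptor of single-stranded RNA, had log2 ratios of 0.15, -0.09, 0.02 and 0.05 on arrays 1 to 4 and of 0.16, 0.31, 0.36 and 0.50 on arrays 5 to 8. Row 2 lay above row 1 on every array, though for arrays 5 and 1 by a narrow margin. The mean was 0.18 with a standard error of 0.07, and the unadjusted p of 0.0428 in limma missed the threshold. The probe was dim, being well above background on 5 arrays in the RA channel and on 2 in the vehicle channel. *Tlr9*, which binds unmethylated CpG DNA, was not well above background on any array, and its log2 ratios lay between -0.24 and 0.07, with an unadjusted p of 0.273 in limma.

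*Cd14* had the highest mean ratio of the members. Its log2 ratios were 0.90, 0.44, 1.20 and 1.11 on arrays 1 to 4 and 1.29, 2.24, 1.94 and 2.29 on arrays 5 to 8. No array was below 0, and the slide rows did not overlap. The mean was 1.43 with a standard error of 0.21 (2.69-fold), with 1.66 when RA was in Cy5 and 1.20 when it was in Cy3. Its unadjusted p in limma was 2.06e-04 and its adjusted p 0.222, and by unadjusted p it ranked 19 among all named genes. The normalised log2 intensity was 9.03 ± 0.94 in the RA channel and 7.61 ± 0.33 in the vehicle channel (SD, n = 8 arrays). On each of the 8 arrays the *Cd14* ratio was above that of *Tlr4*, by a mean of 1.24 on the log2 scale with a range from 0.41 to 2.00.

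*Ly96* had log2 ratios of -0.13, 0.36, 0.20 and 0.21 on arrays 1 to 4 and of 0.64, 0.35, 0.28 and 0.35 on arrays 5 to 8. Array 1 alone was below 0, and the mean was 0.28 with a standard error of 0.07 (1.22-fold), and limma gave an unadjusted p of 0.00604. Under plain background subtraction and with Agilent's log ratio the mean was 0.59, and it missed the threshold in both. This probe had 1 spot per array. A second probe, A_64_P310726, had a mean of 0.25 with a standard error of 0.10 and missed the threshold with an unadjusted p of 0.0349 in limma. Its ratios were 0.76, -0.14, 0.33 and 0.02 on arrays 1 to 4 and -0.18, 0.56, 0.54 and 0.13 on arrays 5 to 8. The *Ly96* probes had the same sign on 5 arrays, and their ratios ran opposite to each other with a Pearson r of -0.70 over the 8 arrays. With RA in Cy5 the mean was 0.19 for the first probe and 0.45 for the second, while with RA in Cy3 it was 0.37 and 0.06. The call of *Ly96* therefore rested on the brighter probe. The *Cd14* ratio was higher than that of *Ly96* on all 8 arrays, by 0.09 to 1.94 on the log2 scale.

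*Myd88* had log2 ratios of 0.19, 0.18, 0.42 and 0.29 on arrays 1 to 4 and of 0.75, 1.17, 0.92 and 0.93 on arrays 5 to 8. Every array was above 0 and the slide rows did not overlap. The mean was 0.61 with a standard error of 0.14 (1.52-fold), for which limma gave an unadjusted p of 0.00270. When the signs of the 4 couple means were flipped in an exact permutation test (two-sided), p was 0.125 in every coupling for *Tlr2*, *Tlr4*, *Tlr6*, *Cd14*, *Ly96* and *Myd88*, and this is the smallest p that 4 couples allow.

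**Figure D2:**
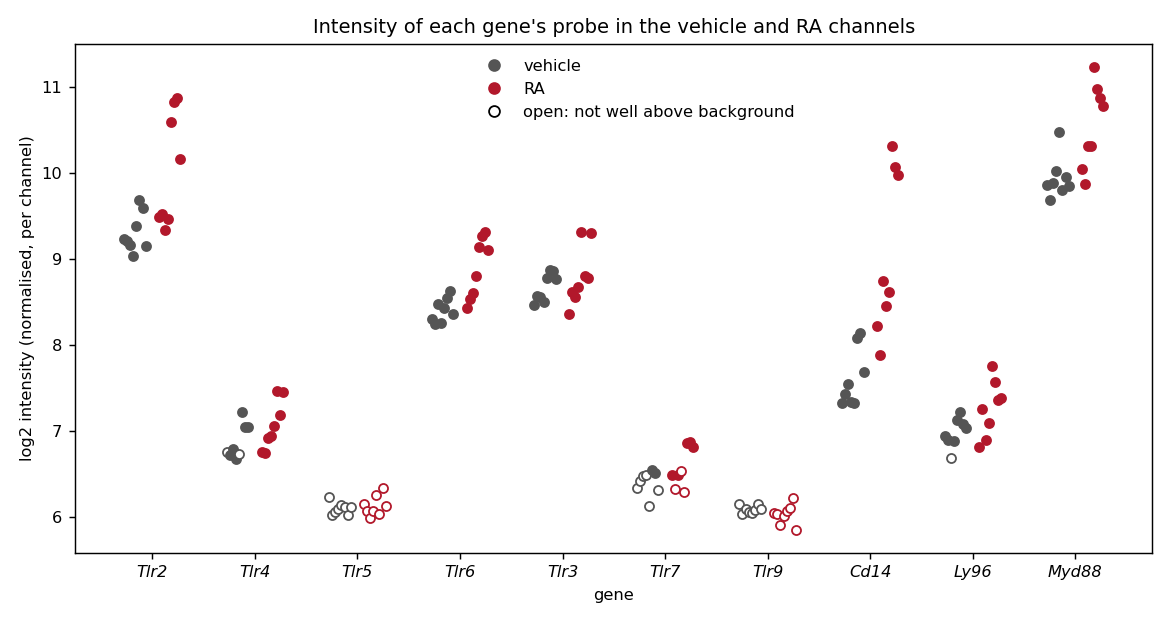
Normalised log2 intensity (vertical axis) of each member's probe in the RA and the vehicle channel of the 8 arrays. Points stand for single channels, open where the probe was not well above background. Levels of different probes cannot be set against each other, and *Tlr5* and *Tlr9* were not well above background in either channel.

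The surface receptors were compared with the endosomal receptors on each array. The mean log2 ratio of the 4 surface receptors was 0.36 ± 0.23 (SD over 8 arrays) and ranged from 0.08 to 0.61, so that it was above 0 on every array. That of the 3 endosomal receptors was 0.08 ± 0.12, ranged from -0.06 to 0.27, and was above 0 on 5 arrays. The surface receptors were the higher group on all 8 arrays, by a mean of 0.28 on the log2 scale with a range from 0.10 to 0.49. The difference was 0.24 where Cy5 carried RA and 0.32 where Cy3 did. Without *Tlr5* and *Tlr9*, which were never well above background, the difference was 0.32 and still above 0 on all 8 arrays. With plain background subtraction, under which *Tlr5* and *Tlr9* could not be fitted and the dim *Tlr7* had a mean ratio of 1.08, the difference was -0.0025. It is given as a description and was not tested. Within the surface group the values were uneven, with mean ratios of 0.73 for *Tlr2* and 0.50 for *Tlr6* but 0.19 for *Tlr4*, which lay beside the 0.18 of the endosomal *Tlr7*. These gaps depended on the background correction. Under plain subtraction the means were 0.79 for *Tlr2*, 0.60 for *Tlr6*, 0.45 for the dimmer *Tlr4* and 1.08 for *Tlr7*.

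**Figure D3:**
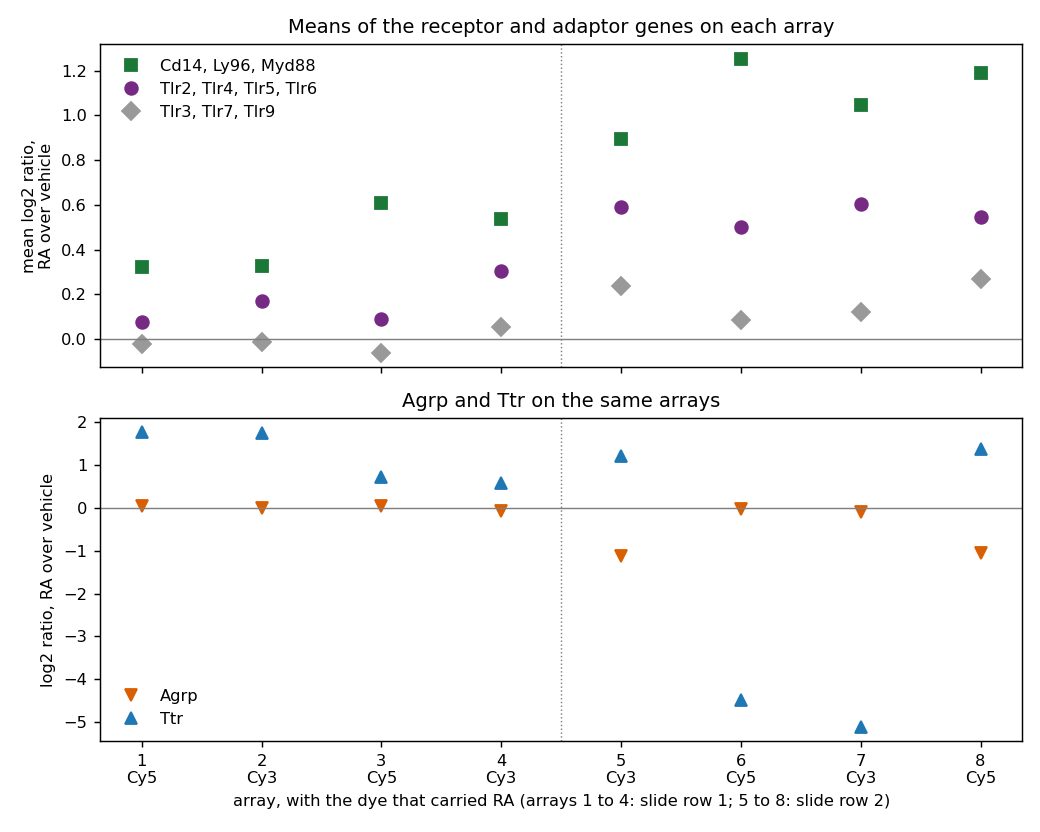
Mean log2 ratio of RA over vehicle (vertical axis) of the surface receptors, the endosomal receptors and the co-receptors with the adaptor (upper panel) and log2 ratios of *Agrp* and *Ttr* (lower panel), by array (horizontal axis). The surface receptors lie above the endosomal receptors on all 8 arrays, and the co-receptors with the adaptor range from 0.32 to 1.25.

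The ratios differed between the rows of the slide. Arrays 1 to 4 lay in row 1 and arrays 5 to 8 in row 2, and each row held both dye orders. In row 1 the increase was 1.88-fold for *Cd14*, 1.22-fold for *Tlr2* and 1.21-fold for *Myd88*, and in row 2 it was 3.84-fold, 2.24-fold and 1.92-fold. For *Tlr2*, *Tlr6*, *Tlr7*, *Cd14* and *Myd88* every array of row 2 lay above every array of row 1, which held for 5.3% of named genes (2.14% had the reverse order). Slide position and the rats on each row cannot be told apart. Some arrays also stood apart in other genes. The log2 ratio of *Agrp*, the orexigenic peptide of the arcuate nucleus, was -1.11 on array 5 and -1.04 on array 8, whereas the other 6 arrays gave -0.09 to 0.05. That of *Ttr*, the transthyretin gene of the choroid plexus, was -4.48 on array 6 and -5.11 on array 7, whereas the other 6 arrays gave 0.57 to 1.76. Among those, *Ttr* was close between arrays of opposite dye order, at 1.76 and 1.74 on arrays 1 and 2. Arrays 3 and 4 gave 0.73 and 0.57, and arrays 8 and 5 gave 1.37 and 1.21. Whether arrays so alike shared RNA was not tested. Without arrays 5 and 8, 2 members passed the threshold in limma, *Cd14* (1.31) and *Tlr6* (0.42), while *Tlr2* had 0.60 with an unadjusted p of 0.0176 and *Myd88* 0.53 with 0.0148. Without arrays 6 and 7, 3 members passed it, *Cd14* (1.21), *Tlr6* (0.43) and *Myd88* (0.46), while *Tlr2* had 0.56 with an unadjusted p of 0.0142. Calls over all named genes fell too, from 654 to 320 without arrays 5 and 8 and to 385 without arrays 6 and 7. The part of either pair of arrays in the results was not tested.

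Of 110 other genes of the pathway, 91 had a named probe, and of these 20 were higher after RA and 0 lower at the methods' threshold in limma, beside 3.52% and 0.792% of all named genes. Their median log2 fold change was 0.13. Among 8 other Toll-like and related receptors none passed the threshold. They were *Tlr8*, *Tlr10*, *Tlr11*, *Tlr12*, *Cd180*, *Il1rap*, *Il1rl1* and *Il18r1*. *Cd180*, a receptor homologue on B cells and macrophages, had 0.28 with an unadjusted p of 0.0169 in limma, and *Tlr8* was not well above background on any array. Of 7 accessory and trafficking genes 4 were higher. *Ly86*, the MD-1 subunit that pairs with CD180, had a log2 fold change of 1.18, *Nrros* one of 0.46, *Scarb1* one of 0.20 and the chaperone *Cnpy3* one of 0.20. *Lbp*, which delivers lipopolysaccharide to CD14, had 0.17 with an unadjusted p of 0.164 in limma.

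Downstream of the receptors, none of 3 other adaptors and 1 of 14 kinases and ligases passed the threshold. The kinase was *Ikbke* at 0.47 on the log2 scale, whereas the first kinases and the ligase behind MYD88 had log2 fold changes of 0.13 (*Irak1*), 0.03 (*Irak4*) and -0.04 (*Traf6*), none past the threshold. The adaptor *Ticam2* had 0.10 with an unadjusted p of 0.308 in limma. Of 12 inhibitors *Inpp5d*, the lipid phosphatase SHIP1, rose by 0.43 on the log2 scale. Of 11 transcription factors 6 rose, with a list median of 0.38. They included *Cebpb* at 0.94, *Spi1*, which encodes PU.1, at 0.60, *Irf5* at 0.44 and *Nfkb2* at 0.38 on the log2 scale. Of 12 endogenous ligands 3 rose, *S100a9* by 1.25, *Fn1* by 0.50 and *Tnc* by 0.38. Of 24 output genes 5 rose, led by the chemokine *Ccl2* at 2.13 and the cytokines *Il1b* at 1.30 and *Tnf* at 0.82, with the costimulatory receptor *Cd40* at 0.69. In the output list 7 genes were never well above background. *Tlr1*, *Unc93b1*, *Tirap* and *Ticam1* were not analysed here.

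**Figure D4:**
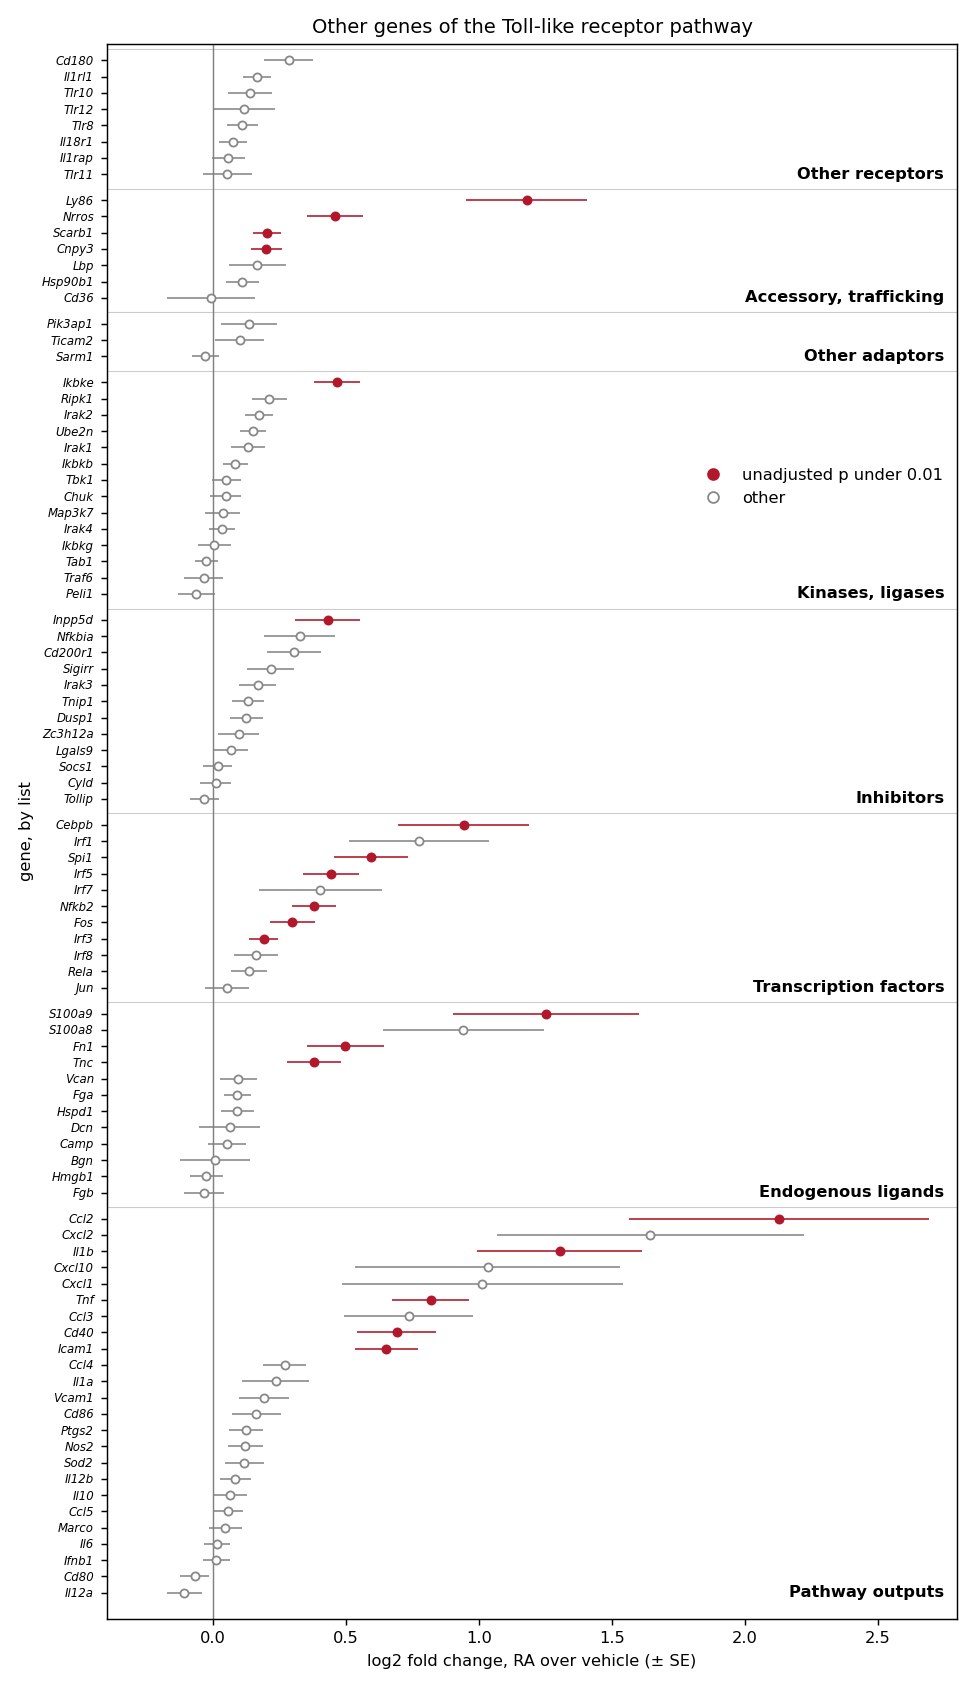
Log2 fold change of RA over vehicle (horizontal axis, bars are standard errors) of the 91 other pathway genes with a named probe, by list. Filled points passed an unadjusted p under 0.01 in limma; all 20 of them lie to the right of 0, with *Ccl2* the highest at 2.13.

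Markers of cells that carry these receptors moved unevenly. Of 13 measured microglial markers 3 rose, *Tyrobp* by 1.08, *Aif1* by 0.88 and *Itgam* by 0.87 on the log2 scale, and *Tmem119* fell by 0.52, while the list median was -0.05 and each marker was well above background on at least 1 array. The summed intensity of the list ranged from 25155 to 48565 in the RA channels and from 22909 to 34874 in the vehicle channels, and RA was higher on all 8 arrays. Of 9 monocyte and macrophage markers 4 rose, among them *Lyz2* by 1.30 and *Cd68* by 1.07, and 5 did not pass the threshold. The median of these markers was 0.34, and *Cd68* was above 0 on 6 arrays, with a lowest ratio of -0.24. *Msr1*, a scavenger receptor, was not well above background in vehicle on any array, and was so after RA on 6 arrays. Its vehicle level was set to no less than the lowest intensity called well above background on each array. With that floor the mean increase of *Msr1* was at least 1.36-fold, and without it 1.44-fold. The log2 ratios of *Msr1* ranged from 0.0020 to 1.02 over the arrays. The summed intensity of that list was 10563 to 49619 after RA and 6705 to 14545 after vehicle. *Lyz2*, with a mean log2 intensity of 14.06 after RA and 12.76 after vehicle, supplied most of that sum. Of 9 neutrophil markers *S100a9* and *Csf3r* rose, *Elane* and *Mmp8* were never well above background, and the sums were 888 to 2360 after RA and 797 to 992 after vehicle. Of 7 astrocyte markers *Gfap* rose by 1.40 and *Gja1* fell by 0.22. No marker of 7 for endothelium or 11 for choroid plexus passed the threshold. Of 20 neuropeptide genes that mark the hypothalamus 19 had a probe, each well above background on at least 1 array, and *Cartpt* fell by 0.42. The part of these cell types in the ratios of the receptors was not tested.

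The genes most like each rising member were sought among 9461 named genes (9462 for *Ly96*) well above background on all arrays, as the Pearson r of the 8 log2 ratios with the mean of each dye order removed. For *Tlr2* they were *Slc16a3* (r = 0.997), *Lcp1* (0.994) and *Sdc1* (0.994). For *Myd88* they were *Chaf1b* (0.997), *Hnrnpa3* (0.995) and *Litaf* (0.993), and for *Cd14* they were *Tnfrsf9* (0.994), *Nubp1* (0.991) and *Parp3* (0.987). *Tlr6* was followed most closely by *Nasp* (0.988), *Sowahc* (0.978) and *Dtymk* (0.976). *Ly96* was followed by *Vdac1* (0.990), *Or51b6* (0.982) and *Plpp6* (0.976), whose own mean log2 ratios were slightly below 0 (-0.10, -0.06 and -0.02), and the second *Ly96* probe ran opposite to the one used. Such likeness was common, since 360 genes passed an r of 0.9 with *Myd88*, 336 with *Tlr2*, 181 with *Cd14*, 146 with *Tlr6* and 31 with *Ly96*. The ratios share their arrays and slide row, so the values are a description only.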

How the data were processed

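The authors deposited the scanner output of 8 two-colour arrays, giving linear Cy3 and Cy5 intensity by spot beside Agilent's log10 ratio, and a series table of log2 ratios after normalisation. By their methods, limma was used with loess, identical probes were averaged and the dye-swap served as a block.

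In R 4.3.3 with limma 3.58.1, median intensities were corrected by normexp (offset 50), outlier spots (0.913% to 2.42% per array) were left out, loess was run within arrays and spots of a probe were averaged. Probes well above background made up 57.4% to 74.6% in RA and 61.2% to 74.5% in vehicle. The number of arrays limits the precision.

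Means of 4 couples of arrays, 1 of each dye order, were fitted with limma over 30367 probes in all 24 couplings. The largest p was kept and adjusted by Benjamini-Hochberg. Names came from RefSeq GRCr8 accessions, for 18006 probes. Arrays were not scaled to each other. No per-array column was left without a sample (0).

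The members and lists were chosen with earlier results of these data known. Named were all members, up to 4 genes past the threshold per pathway list by size of change, some adaptors and kinases, up to 3 genes per marker list, and the 3 genes most like each called member. *Agrp*, *Ttr*, *Tmem119*, *Elane* and *Mmp8* were named after their values were seen. Alternatives covered background correction, deposited values, scaling between arrays, filters, couplings, blocks, dye orders, slide rows and left-out arrays.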

Additional observations from a re-analysis of the deposited data

Results flagged for a closer look

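For each member and the surface minus endosomal difference, the 4 arrays sharing a dye order were examined for 1 that lay far from its neighbours. This was so in 2 of 22 cases, where chance gives about 1 in 20. Where Cy5 carried RA, the log2 ratio of *Tlr3* was 0.54 on array 8, and the other 3 arrays gave -0.10 to -0.0032. Array 5, of the other dye order, had 0.53. For *Tlr5* in the same dye order array 8 gave 0.012 and the other 3 arrays -0.08 to -0.07, with a probe that was not well above background on any array.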

How the results depend on the processing

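In limma, *Cd14* passed an unadjusted p under 0.01 in 19 of 19 alternatives and with every left-out couple of arrays (16 of 16), *Tlr6* in 18 and 16, *Myd88* in 17 and 14, *Tlr2* in 17 and 12, and *Ly96* in 15 of 20 and 6 of 16. Some alternatives could not fail for a called member, so these counts overstate the checks. Quantile scaling of mean intensity between arrays left the ratios unchanged. Single couplings cannot exceed the largest p over couplings. Leaving out receptors never well above background reused the main p values. Members past the threshold numbered 5, with 2 under plain subtraction and 1 with Agilent's log ratio. They numbered 4 in slide row 1 alone and with RA in Cy5 alone. With couples as a random block, with independent arrays and in slide row 2 alone they numbered 6. In the coupling with the most calls and with slide row as a block they numbered 7. *Tlr4* passed in 4 of 19 alternatives and the endosomal *Tlr7* in 3 of 18. The median of the members was 0.62 under plain subtraction, 0.58 with Agilent's ratio and 0.50 over bright probes alone. Other pathway genes past the threshold numbered 20, with 4 under plain subtraction, 3 with Agilent's ratio, 11 over bright probes, 38 in the coupling with the most calls, 31 with couples as a random block, 31 with independent arrays, 31 in slide row 2 alone and 36 with slide row as a block. With 1 array of each dye order left out, members past the threshold numbered 2 to 6, pathway genes 6 to 23, the median was 0.17 to 0.29 and the surface minus endosomal difference 0.22 to 0.32. That difference was -0.0025 under plain subtraction. *Tlr9* was 0 with Agilent's ratio and 0.013 in arrays with RA in Cy3 alone. *Tlr5* was -0.051 with RA in Cy5 alone and -0.028 in slide row 1 alone. With arrays left out, *Tlr5* ran from -0.012 (without 8 and 7) to 0.060, and *Tlr3* from -0.0061 (without 8 and 5) to 0.20. Over all named genes 654 passed, with 172 under plain subtraction, 216 with Agilent's ratio, 486 over bright probes, 1891 in the coupling with the most calls, 1142 with the random block, 1509 with independent arrays, 975 in slide row 2, 1886 with slide row as a block and 320 to 739 with arrays left out. The cause of these changes was not tested. No paired analysis by label number was possible because the replicate numbers of the labels are all distinct. Dim probes limit *Tlr5*, *Tlr9* and *Tlr7*, and the size of the *Tlr4* and *Ly96* ratios depended on the background correction.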
